A study of Mus musculus with 4 samples.

Results

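The peroxisome proliferator-activated receptors (PPARs), their dimer partners of the retinoid X receptor (RXR) family and 3 coregulators were examined in ureters that lacked functional PPARG in the urothelium. The members are *Pparg*, *Ppara* and *Ppard*, *Rxra*, *Rxrb* and *Rxrg*, the coactivators *Ppargc1a* and *Ppargc1b*, and the corepressor *Ncor1*. They were chosen by gene name, and every probe that carries such a name was taken, which gave 17 probes for 9 of the 29924 gene names on the array. The study compared 4 groups of cultured mouse ureters, with 2 pools in each. The control ureters came from cre-negative animals that carry the floxed allele, labelled Pparg (fl/?), and the Pparg-cKO ureters came from Pax2-cre/+; Pparg (fl/fl) animals, all on the outbred NMRI background. Ureters were explanted at P0, the day of birth, and kept in culture for 8 days with either the solvent DMSO or 2 µM purmorphamine, an agonist of Hedgehog signaling that acts on the receptor protein SMO. Replicate 1 pooled male and replicate 2 female ureters.

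*Pax2-cre* recombines in the nephric duct, the ureteric epithelium and the collecting ducts, so that the mesenchyme around the urothelium of a Pparg-cKO ureter keeps an intact *Pparg*. The arrays measured RNA of whole ureters. A difference in such bulk RNA can come from fewer cells of a type or from less RNA per cell, and these cannot be told apart here.

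PPARs are nuclear receptors that are activated by fatty acids and their derivatives. Each binds DNA as a dimer with an RXR, at direct repeats of a hexamer, and RXRs serve as partners for many other nuclear receptors too. PPARG is known as the master regulator of fat cells and as a driver of terminal differentiation in the urothelium, PPARA is best known for switching on fatty acid oxidation in liver, heart and brown fat, and PPARD is expressed in most tissues. Without a ligand, the complexes hold corepressors such as NCOR1, and with a ligand they recruit coactivators, among which PGC-1α (the product of *Ppargc1a*) and PGC-1β (*Ppargc1b*) promote mitochondrial biogenesis and oxidation.

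The probes decide what can be said of these genes. The single *Pparg* probe, A_51_P106799, lies at the 3′ end of the gene, on the plus strand of chromosome 6 at chr6:115440213-115440272 (mm9, as are all positions here). The floxed exons 2 and 3 lie upstream of it. The probe therefore counts both the intact and the recombined transcript, and it does not check the genotype. *Ppara* has 3 probes on the plus strand of chromosome 15, of which A_55_P2071601 begins 424 and A_55_P2071596 5083 bases downstream of the start of A_55_P2055854. *Rxrg* has 2 probes on the plus strand of chromosome 1 whose starts are 128 bases apart. The first 30 bases of the *Pparg* and *Ppara* probes, and 30 bases of each *Rxrg* probe, are shown here because the results turn on these probes and because probes of the same gene gave different fold changes. In A_55_P2044359 the capitals mark AATAAA, the usual polyadenylation signal, found on the strand of the probe, and the other *Rxrg* probe begins 85 bases beyond it.
*Pparg* A_51_P106799, chr6:115440213-115440242: gcaggaaagtcccacccgctgacaacgtgt
*Ppara* A_55_P2055854, chr15:85632110-85632139: ctttgaaaacctacaagtcaaggtgtggcc
*Ppara* A_55_P2071601, chr15:85632534-85632563: aaatgctcctctaggcccctcctttggcag
*Ppara* A_55_P2071596, chr15:85637193-85637222: cctgtaagctgatgaatgtaaagagttaat
*Rxrg* A_55_P2044359, chr1:169569521-169569550: tgtgatgcttgtAATAAAgacaacctttct
*Rxrg* A_51_P513311, chr1:169569624-169569653: aggtctttccggcagttcttgggaagagtg
The letters AATAAA are present in 12.6% of the 39429 probes of the array, and none of the other 16 member probes holds them. *Rxra* and *Ppargc1a* have 2 probes each, *Ncor1* has 4, and *Ppard*, *Rxrb* and *Ppargc1b* have a single probe each.

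All 17 probes were bright enough to be tested. All but A_51_P513311 of *Rxrg* were well above background in all 8 channels, and that probe was so in 7, with 29 of its 32 spots. No spot was saturated on the arrays, and 66.3% to 70.5% of spots were well above background per channel. All values below are normalised intensities on the log2 scale. They compare groups for the same probe, and the level of a probe says nothing about the level of another. All 4 arrays lay on 1 slide. Within a treatment, sex and dye are the same split as the replicate number, and the male and female differences are given beside each main result. Nothing in the labels says whether pools of the same sex came from the same litters, so p-values measure the spread between these pools.

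**Figure D1:**
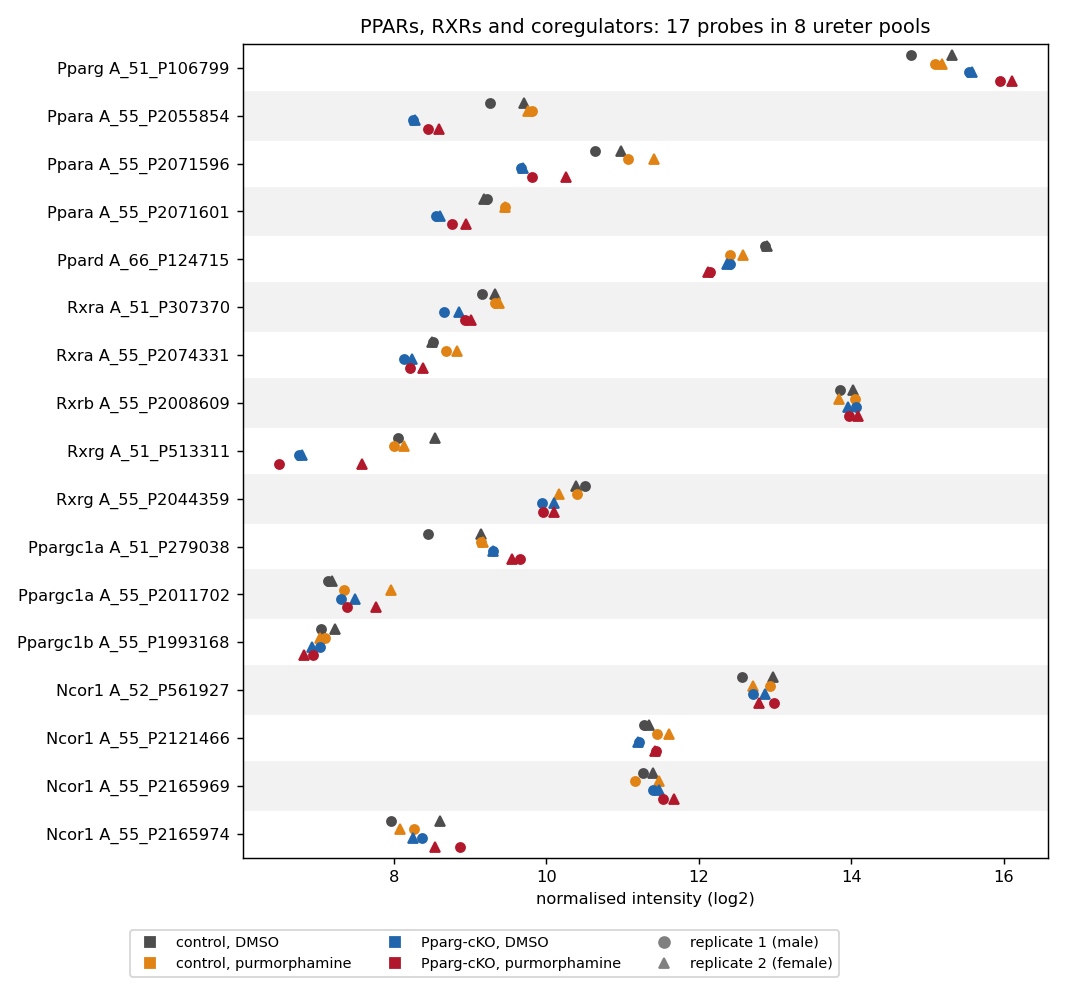
Normalised intensity (log2, x axis) of each of the 17 probes in the 8 pools. Colors mark genotype and treatment, circles the male and triangles the female pool. The *Ppara* probes of the Pparg-cKO pools lie to the left of all control pools, and the *Pparg* probe of the Pparg-cKO pools to the right. Positions are comparable within a row and not between rows.

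*Pparg* itself was bright in every pool. With DMSO, the log2 intensity was 14.79 in male and 15.31 in female control ureters, and control ureters with purmorphamine had 15.10 and 15.18. Pparg-cKO ureters gave 15.55 and 15.58 with DMSO and 15.95 and 16.10 with purmorphamine. The order of the groups was thus control with DMSO, control with purmorphamine, Pparg-cKO with DMSO and Pparg-cKO with purmorphamine. The ranges of both control groups overlapped, and no control pool reached a Pparg-cKO pool. The log2 fold change of Pparg-cKO over control was 0.51 ± 0.17 (SE, n = 2 pools per group) with DMSO, with an adjusted p of 0.209 in limma over all 27064 probes tested, and 0.88 ± 0.17 with purmorphamine, with an adjusted p of 0.0508. The male and female differences were 0.76 and 0.27 with DMSO and 0.85 and 0.92 with purmorphamine. The value with purmorphamine lay at the threshold. Of 8 other settings, 2 brought it past, with an adjusted p of 0.0474 when a single probe per gene was tested and of 0.0465 when all 8 channels were set to the same distribution, and 6 did not, with an adjusted p up to 0.143. It did not pass when any of the 4 arrays was left out either, with an adjusted p up to 0.289. Under the rule that the methods of the study state, with an intensity above 100 and at least 1.5-fold the same way in both pairs, *Pparg* passed with purmorphamine, with ratios of 1.69 and 1.82, and not with DMSO, where the female ratio was 1.18.

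*Ppara* was lower in Pparg-cKO ureters at all 3 of its probes and with either treatment. The brightest probe, A_55_P2071596, had log2 intensities of 10.64 and 10.98 in the male and female control pools with DMSO against 9.67 and 9.69 in the Pparg-cKO pools. With purmorphamine, it had 11.07 and 11.41 in control against 9.81 and 10.26 in Pparg-cKO pools. All 4 Pparg-cKO pools lay below all 4 control pools. The log2 fold change was -1.13 ± 0.19 (adjusted p = 0.0296) with DMSO and -1.20 ± 0.19 (adjusted p = 0.0304) with purmorphamine, so that the intensity in Pparg-cKO ureters was 0.457 and 0.434 times that in control.

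Probe A_55_P2055854 gave 9.26 and 9.71 in control against 8.26 and 8.28 in Pparg-cKO pools with DMSO. With purmorphamine it gave 9.82 and 9.76 against 8.45 and 8.59. Again no pools of the 2 genotypes overlapped. Its log2 fold changes were -1.22 ± 0.15 (adjusted p = 0.0107) and -1.27 ± 0.15 (adjusted p = 0.0148). The remaining probe, A_55_P2071601, changed less. It fell by 0.62 ± 0.096 with DMSO (adjusted p = 0.0204) and by 0.60 ± 0.096 with purmorphamine (adjusted p = 0.0298) on the log2 scale. The 3 probes therefore spanned 0.59 with DMSO and 0.66 with purmorphamine on the log2 scale, although A_55_P2071601 lies only 424 bases from the start of the probe with the largest change. Both pairs had the same sign at every probe. The male and female differences of A_55_P2071596 were -0.97 and -1.29 with DMSO and -1.26 and -1.15 with purmorphamine. By the rule of the methods all 3 probes passed with DMSO, and with purmorphamine A_55_P2055854 and A_55_P2071596 passed, while A_55_P2071601 had ratios of 0.649 and 0.700 and did not.

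Most of the *Ppara* calls ended when an array was left out. When control replicate 1, control replicate 2, Pparg-cKO replicate 1 or Pparg-cKO replicate 2 was left out, the log2 fold change of A_55_P2071596 with DMSO lay between -0.96 and -1.30 and its adjusted p between 0.0954 and 0.171, and with purmorphamine they lay between -0.98 and -1.43 and between 0.0601 and 0.232. For A_55_P2055854 with DMSO the call was kept without control replicate 1 and ended without each of the others, with adjusted p of 0.0800, 0.0792 and 0.0870. With purmorphamine the calls of this probe and of A_55_P2071601 ended without any array, with adjusted p of 0.0685 to 0.155 and 0.122 to 0.348, as did that of A_55_P2071601 with DMSO, with 0.151 to 0.156. A_55_P2071596 also missed the threshold with the processed signals (adjusted p = 0.0832 and 0.0842) and without the filter on dim probes (adjusted p = 0.0531 and 0.0527), and A_55_P2055854 with purmorphamine with the processed signals (adjusted p = 0.0553). With the replicate number as a block, the calls of A_55_P2071601 (adjusted p = 0.0660 and 0.0812) and of A_55_P2055854 with purmorphamine (adjusted p = 0.0535) ended too. In each fit without an array a genotype keeps a single pool, which is assumed to vary as the other groups do.

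*Ppard* was lower in Pparg-cKO ureters with DMSO. Its probe A_66_P124715 had 12.86 and 12.89 in control pools and 12.41 and 12.36 in Pparg-cKO pools. The pools of a group differed by less than 0.05 on the log2 scale, and the groups did not overlap. The log2 fold change was -0.49 ± 0.095 with an adjusted p of 0.0451. With purmorphamine the control pools had 12.40 and 12.58 and the Pparg-cKO pools 12.15 and 12.12. The log2 fold change of -0.35 ± 0.095 did not pass the test (adjusted p = 0.125). Only without normalisation between arrays did it pass with purmorphamine, at -0.55 (adjusted p = 0.0495). The ratios in the processed signals were 0.716 and 0.720 with DMSO, under the fold threshold of the methods. The DMSO call ended with the smaller normexp offset of 16 (adjusted p = 0.0550), with the replicate block (adjusted p = 0.108) and whenever an array was left out, with adjusted p from 0.144 without control replicate 1 through 0.173 without control replicate 2 and 0.271 without Pparg-cKO replicate 1 to 0.383 without Pparg-cKO replicate 2.

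Among the dimer partners, no RXR probe passed the adjusted threshold in the comparison of genotypes. *Rxra*, the main RXR of liver and skin, had values of the same sign throughout. At A_51_P307370 the control pools had 9.16 and 9.32 with DMSO and 9.32 and 9.38 with purmorphamine. The Pparg-cKO pools had 8.65 and 8.86, and 8.93 and 9.01. Pools of the genotypes did not overlap. The log2 fold changes were -0.48 ± 0.11 (adjusted p = 0.0744) and -0.38 ± 0.11 (adjusted p = 0.151). At the other probe, A_55_P2074331, which begins 3465 bases further downstream, they were -0.31 ± 0.10 (adjusted p = 0.208) and -0.46 ± 0.10 (adjusted p = 0.0785). Only without normalisation between arrays did this probe pass with purmorphamine, at -0.54 (adjusted p = 0.0474). All 8 differences between pools of the same sex and treatment, taken over both probes, were below 0, between -0.50 and -0.25.

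*Rxrb* showed no difference that its spread would allow to be seen. Its single probe, A_55_P2008609, lay between 13.83 and 14.08 in the 8 pools, and control and Pparg-cKO pools overlapped with either treatment. The 95% confidence interval of the log2 fold change ran from -0.22 to 0.36 with DMSO and from -0.20 to 0.38 with purmorphamine.

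*Rxrg*, the RXR with the most restricted expression, known from striated muscle, brain and thyrotrope cells, gave the largest difference among the members with DMSO and the widest spread between probes of a gene. A_51_P513311 had 8.06 and 8.54 in control and 6.75 and 6.80 in Pparg-cKO pools with DMSO. With purmorphamine it had 8.00 and 8.13 in control pools, 6.50 in the male Pparg-cKO pool, where only 1 of 4 spots was well above background, and 7.59 in the female. The log2 fold changes were -1.52 ± 0.34 (adjusted p = 0.0672) and -1.02 ± 0.34 (adjusted p = 0.197). With the processed signals they were -2.47 (adjusted p = 0.130) and -1.41 (adjusted p = 0.322), and without Pparg-cKO replicate 1 or Pparg-cKO replicate 2 the value with purmorphamine was -0.48 or -1.57, so that its size is uncertain. The brighter probe, A_55_P2044359, which holds the AATAAA shown above, had 10.51 and 10.39 in control against 9.95 and 10.11 in Pparg-cKO pools with DMSO, a log2 fold change of -0.42 ± 0.12 (adjusted p = 0.144), and one of -0.26 ± 0.12 (adjusted p = 0.374) with purmorphamine. The probes thus differed by 1.10 and by 0.77 on the log2 scale. Without normalisation between arrays both passed with DMSO, with adjusted p of 0.0482 and 0.0286.

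**Figure D2:**
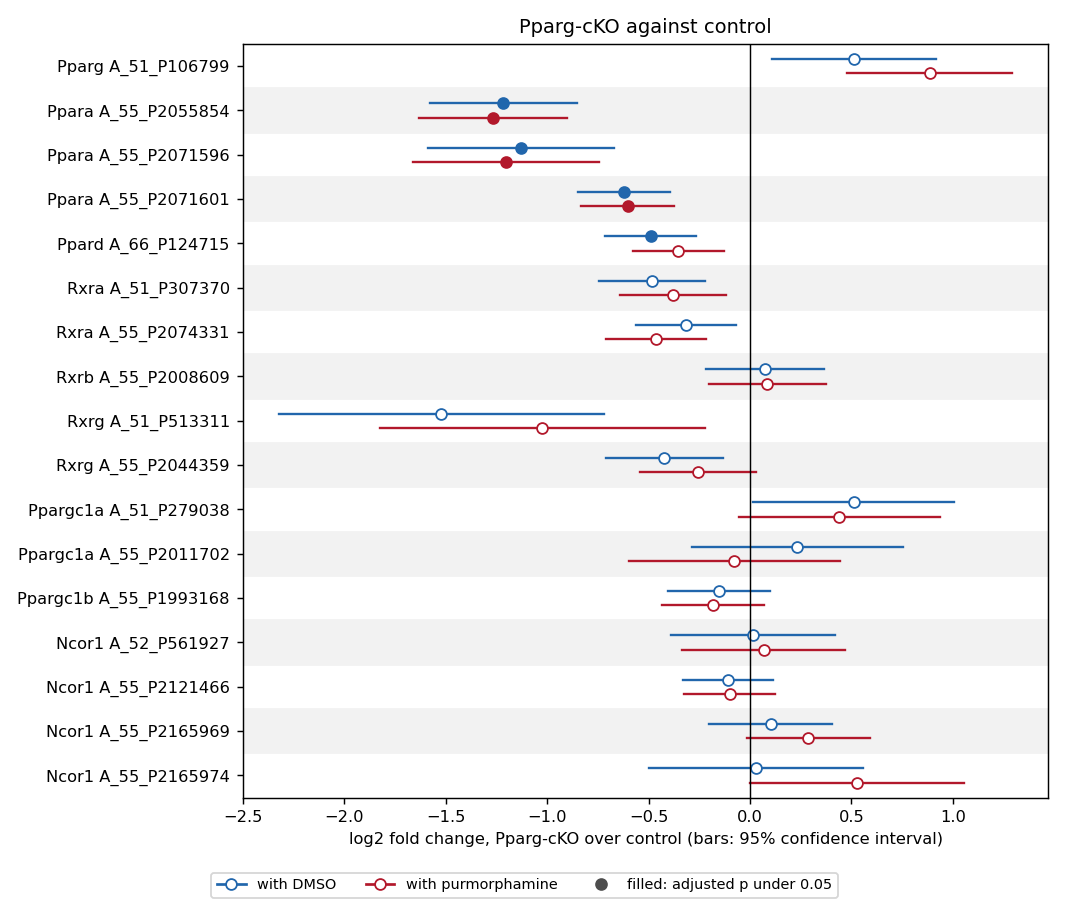
Log2 fold change of Pparg-cKO over control (x axis) for each member probe, with DMSO (blue) and purmorphamine (red). Bars are 95% confidence intervals from the limma fit, and filled points have an adjusted p under 0.05. All filled points are *Ppara* probes, besides *Ppard* with DMSO, and all lie below 0.

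No probe of the coregulators passed the adjusted threshold between the genotypes. For *Ppargc1a*, A_51_P279038 had 8.44 in the male and 9.14 in the female control pool with DMSO, and 9.30 and 9.31 in the Pparg-cKO pools. The 0.70 between the control pools was larger than the distance of the female pool to the Pparg-cKO pools. The log2 fold change was 0.51 ± 0.21 (adjusted p = 0.315) with DMSO and 0.44 ± 0.21 (adjusted p = 0.375) with purmorphamine. The second *Ppargc1a* probe, A_55_P2011702, gave 0.23 ± 0.22 and -0.08 ± 0.22, so that the probes did not share a direction with purmorphamine. *Ppargc1b* was near the lower end of the measurable range, with log2 intensities of 6.82 to 7.23 in the 8 pools, and its log2 fold changes were -0.15 ± 0.10 (adjusted p = 0.601) and -0.18 ± 0.10 (adjusted p = 0.483).

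*Ncor1* gave log2 fold changes between -0.11 and 0.10 at its 4 probes with DMSO. Its brightest probe, A_52_P561927, had 12.56 and 12.98 in control and 12.71 and 12.86 in Pparg-cKO pools, and the 95% confidence interval of the log2 fold change was -0.39 to 0.42. With purmorphamine the 4 probes spread from -0.10 to 0.53. The highest value was that of A_55_P2165974, which had 8.27 and 8.09 in control against 8.87 and 8.54 in Pparg-cKO pools. It did not pass the test (adjusted p = 0.317), and it passed the rule of the methods with ratios of 1.84 and 1.53. This probe carries an Ensembl transcript and no RefSeq name, unlike the other 3.

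In all, 4 of 17 member probes were called between the genotypes with DMSO, all lower in Pparg-cKO ureters, against 3.43% of the 27064 probes tested (474 higher and 455 lower). With purmorphamine 3 of 17 were called, again all lower, against 2.68% (295 higher and 431 lower). The 4 and 3 calls are not independent, because 3 of them in each case are probes of *Ppara*. At an unadjusted p under 0.05, 10 and 8 member probes passed, beside 4073 and 4287 of the 27064 probes tested. The pools of the genotypes did not overlap for 14 member probes with DMSO and for 14 with purmorphamine, which has to be read against 41.9% and 48.1% of all probes. The median log2 fold change of the 17 probes was -0.15 with DMSO and -0.18 with purmorphamine, and that of all probes tested was 0.00 in each. The genotype comparisons with DMSO and with purmorphamine used different pools that shared their arrays.

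Purmorphamine changed no member at the adjusted threshold. In control ureters 0 of 17 probes were called, against 1.09% of all probes (75 higher and 221 lower), and in Pparg-cKO ureters 0 of 17, against 4.3% (476 higher and 689 lower). In limma, 3 of 17 member probes in each genotype had an unadjusted p under 0.05, as had 18.8% of all probes in control and 21.2% in Pparg-cKO ureters, so that the members' share was no larger than that of all probes. In control ureters these were *Ppard*, with a log2 fold change of purmorphamine over DMSO of -0.38 ± 0.10 (adjusted p = 0.155), *Ppara* A_55_P2071596 with 0.43 ± 0.14 (adjusted p = 0.196) and *Ppargc1a* A_55_P2011702 with 0.49 ± 0.17 (adjusted p = 0.218). In Pparg-cKO ureters they were *Pparg*, with 0.46 ± 0.14 (adjusted p = 0.152), and the *Ppara* probes A_55_P2071601 and A_55_P2071596, with 0.27 ± 0.10 (adjusted p = 0.221) and 0.35 ± 0.14 (adjusted p = 0.229). Pools with and without purmorphamine did not overlap for 8 member probes in control and for 10 in Pparg-cKO ureters, against 46% and 54.3% of all probes.

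**Figure D3:**
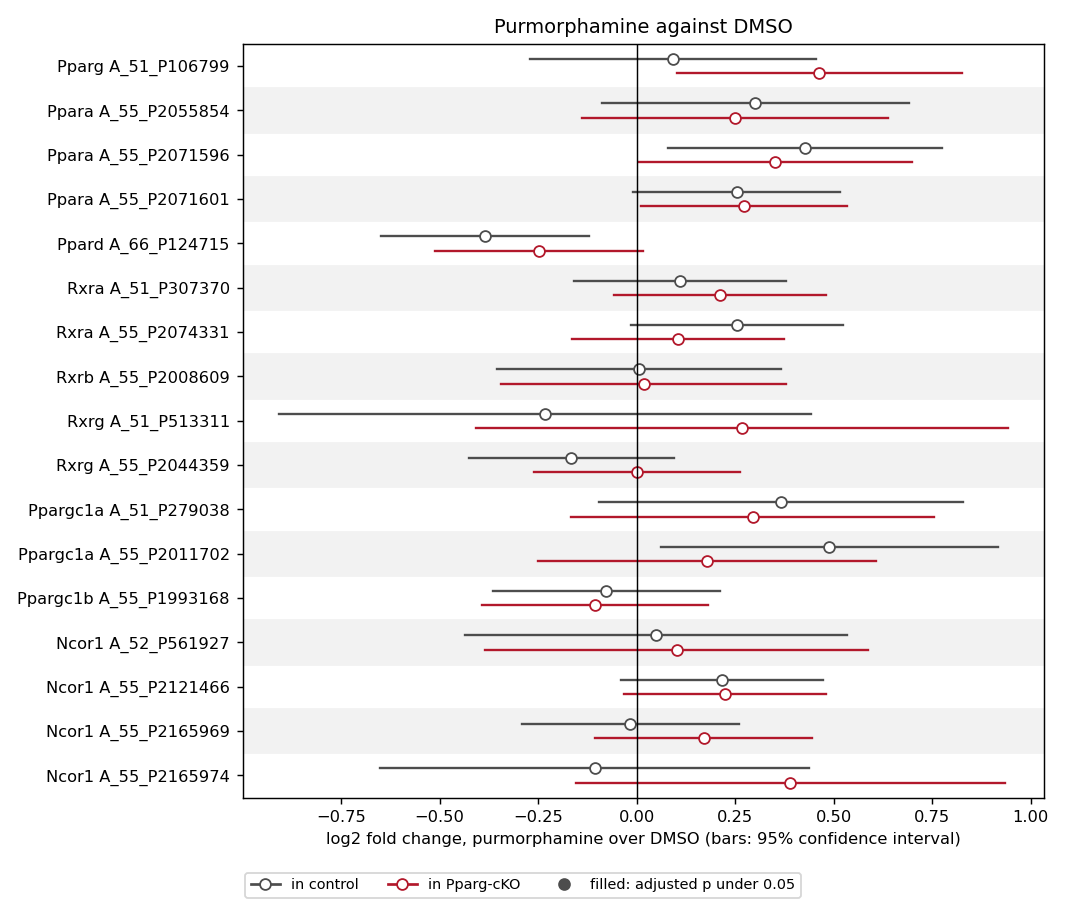
Log2 fold change of purmorphamine over DMSO (x axis) for each member probe in control (gray) and Pparg-cKO (red) ureters. Bars are 95% confidence intervals from the limma fit of the log ratio within each array. No point is filled, as no member had an adjusted p under 0.05.

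The *Ppara* probes had positive values in both genotypes. They were 0.25 to 0.43 in control and 0.25 to 0.35 in Pparg-cKO ureters, and *Ppard* had negative values in both, -0.38 and -0.25. The difference of the purmorphamine effects between the genotypes was tested as an interaction. In it limma called 0 of the 27064 probes, that is 0%. An unadjusted p under 0.05 was reached by 834 probes, and none of the 17 member probes was among these. For *Pparg*, with 0.09 in control and 0.46 in Pparg-cKO ureters, the difference was 0.37 ± 0.20 with a 95% confidence interval of -0.14 to 0.88. For *Ppara* A_55_P2071596 it was -0.08, with an interval of -0.57 to 0.42, so that a change of its genotype difference by purmorphamine of up to these sizes could not be seen with 2 pools a group.

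Markers of other cells moved with the same groups. Of 6 fat cell markers, 5 were well above background in all pools, and *Lep*, which encodes leptin, was so only in the female control pool with purmorphamine. Their summed intensity on the linear scale was 198647 to 267362 in control and 73129 to 112115 in Pparg-cKO pools with DMSO, and 155557 to 199212 against 10605 to 99129 with purmorphamine. Of 4 brown fat markers, *Elovl3* was below background throughout, and the sums were 2133 to 2789 against 1784 to 2048 with DMSO and 3291 to 3402 against 2323 to 2355 with purmorphamine. *Ucp1*, the uncoupling protein that defines brown fat cells, was well above background in all 4 control pools and in none of the Pparg-cKO pools. It had 8.08 on the log2 scale in the male control pool with DMSO. The other control pools had 6.56 to 6.81, close to the 6.27 to 6.36 of the Pparg-cKO pools. *Cidea*, a lipid droplet protein of brown fat, lay between 9.90 and 11.16 in control and between 8.61 and 10.21 in Pparg-cKO pools. *Dio2*, a deiodinase gene that is also on the brown fat list, had the opposite sign, with 10.22 and 9.97 in control against 10.55 and 10.28 in Pparg-cKO pools with DMSO and 9.92 and 9.69 against 10.65 and 9.94 with purmorphamine.

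The values of *Ppara* and the fat cell markers can be set side by side by sex. With purmorphamine, the Pparg-cKO pool had 0.0532 times the fat cell marker sum of the control pool in males and 0.637 times in females. The log2 differences in males and females were -1.26 and -1.15 for *Ppara* A_55_P2071596, -1.37 and -1.17 for A_55_P2055854 and -0.69 and -0.51 for A_55_P2071601. That of *Rxrg* A_51_P513311 was -0.54 in females, and in males the probe was mostly below background in the Pparg-cKO pool. With DMSO, the ratio of the sums was 0.564 in males and 0.274 in females, where the differences of A_55_P2071596 were -0.97 and -1.29. The part that fat cells have in the differences of *Ppara*, *Ppard*, *Rxra* and *Rxrg* was not tested.

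**Figure D4:**
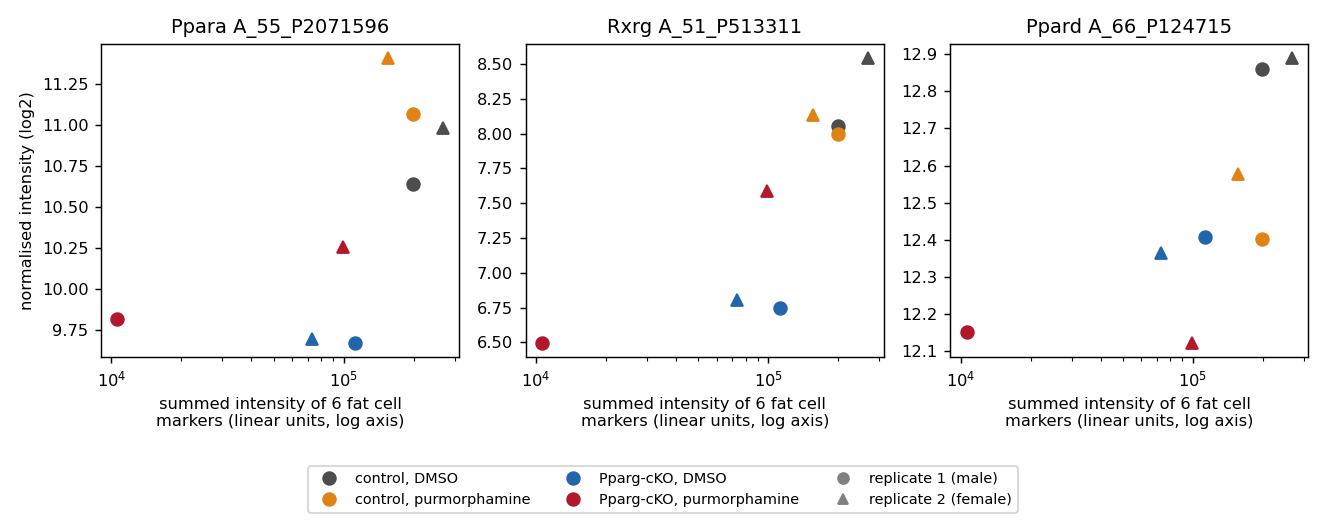
Normalised intensity (log2, y axis, scaled for each panel) of a *Ppara*, an *Rxrg* and the *Ppard* probe against the summed intensity of 6 fat cell markers (x axis, log scale) in the 8 pools. The male Pparg-cKO pool with purmorphamine has the lowest fat cell sum, 10605, and the control pools lie between 155557 and 267362.

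The urothelium that carries the deletion was present in every pool. All 12 urothelial markers were well above background in all 8 pools. Their sum was 434092 to 495675 in control and 359489 to 401623 in Pparg-cKO pools with DMSO, and 602368 to 672656 against 452130 to 474505 with purmorphamine. The list holds *Krt20*, *Upk1a* and *Upk3b*, which the study found lower in fetal Pparg-cKO ureters. The sum can thus differ without a difference in the amount of urothelium. With DMSO, *Krt20* had 13.62 and 14.03 in control against 10.03 and 10.21 in Pparg-cKO pools. *Cdh1* had 14.06 and 13.85 against 13.95 and 14.09 with DMSO, and 13.83 and 14.03 against 13.80 and 13.55 with purmorphamine. Kidney tubule markers were low, with sums of 524 to 816 in control and 1130 to 1299 in Pparg-cKO pools with DMSO and 514 to 544 in all pools with purmorphamine. Striated muscle markers are given here because *Rxrg* is known from that tissue, and 4 of 6 were well above background. Their sums overlapped between genotypes. They were 14631 to 17331 in control and 12352 to 17999 in Pparg-cKO pools with DMSO. With purmorphamine they were 23627 to 27988 and 23332 to 28763. The brightest markers, *Acta1* and *Ckm*, dominated the sums, and the study uses CKM as a smooth muscle marker. *Acta1* and *Ckm* overlapped with either treatment, and *Tnnt3* overlapped with DMSO and was lower in Pparg-cKO pools with purmorphamine. *Myl1* was lower in every Pparg-cKO pool, at 7.753 to 8.997 on the log2 scale, than in every control pool, at 9.454 to 10.062. Sums of leukocyte, fibroblast and smooth muscle markers also overlapped between genotypes with either treatment. Those of 5 endothelial markers did not, with 7572 to 12063 in control and 14333 to 15373 in Pparg-cKO pools with DMSO. With purmorphamine they were 19577 to 20634 in control and 27162 to 30621 in Pparg-cKO pools. The part of these cells in the results was not tested either.

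Other genes of the pathway were taken from lists, with the brightest probe for each gene. Of 13 coactivators, among them the p160 family *Ncoa1*, *Ncoa2* and *Ncoa3* and the acetyltransferases *Crebbp* and *Ep300*, none was called in any of the 5 comparisons. Their log2 fold changes between the genotypes lay between -0.24 and 0.43 with DMSO and between -0.28 and 0.23 with purmorphamine. The highest value was 0.43, of *Cited2*, which was the single coactivator with an unadjusted p under 0.05 with DMSO (adjusted p = 0.176). None of 8 corepressors, which include *Hdac3*, the deacetylase that works with NCOR1, was called, and their values lay between -0.22 and 0.24 and between -0.23 and 0.20. None had an unadjusted p under 0.05.

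Receptors that share RXR as a partner included 2 genes that were lower in Pparg-cKO ureters. Of 13 listed receptors 12 were tested, and with either treatment 2 were called lower and 0 higher. Among all 20229 genes tested, 359 were called lower and 387 higher with DMSO, and 348 lower and 233 higher with purmorphamine. *Nr1h3*, which encodes the oxysterol receptor LXRα, had 12.26 and 12.64 in control and 11.16 and 11.07 in Pparg-cKO pools with DMSO. Its log2 fold change was -1.33 ± 0.24 (adjusted p = 0.0379), and with purmorphamine it was -1.39 ± 0.24 (adjusted p = 0.0391). *Thrb*, a thyroid hormone receptor gene, had 8.71 and 8.84 against 7.65 and 7.88 with DMSO. It fell by 1.01 ± 0.13 (adjusted p = 0.0114) and, with purmorphamine, by 0.98 ± 0.13 (adjusted p = 0.0179) on the log2 scale. In the 4 pools with purmorphamine, *Nr1h3* differed by -1.83 between the males and by -0.96 between the females, and *Thrb* by -1.15 and -0.81. The other 10 receptors, retinoic acid receptors and the vitamin D receptor included, lay between -0.20 and 0.58 with DMSO, and the median of the 12 was 0.15 beside 0.00 for all 20229 genes tested. *Nr4a2*, an orphan receptor of the NR4A family, was the only receptor of this list called for purmorphamine, at -0.96 ± 0.15 on the log2 scale in the Pparg-cKO (adjusted p = 0.0411) beside -0.84 in control (adjusted p = 0.0863). That call ended without Pparg-cKO replicate 1 (adjusted p = 0.134) and without Pparg-cKO replicate 2 (adjusted p = 0.171). Without control replicate 1, control replicate 2, Pparg-cKO replicate 1 or Pparg-cKO replicate 2, the *Thrb* calls ended, with adjusted p of 0.0706, 0.107, 0.0944 and 0.0627 with DMSO and of 0.133, 0.127, 0.161 and 0.0749 with purmorphamine. The *Nr1h3* calls were kept without Pparg-cKO replicate 1 with DMSO and without Pparg-cKO replicate 2 with purmorphamine, and ended without each of the other arrays, with adjusted p from 0.0706 to 0.224. They also ended with the processed signals (adjusted p = 0.0987 and 0.0953), without the filter on dim probes (adjusted p = 0.0667 and 0.0681) and with the replicate block (adjusted p = 0.113 and 0.114).

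Of 7 factors through which the PGC-1 coactivators act, 6 were tested and none was called. Their log2 fold changes between the genotypes lay between -0.37 and 0.30 with DMSO and between -0.72 and 0.12 with purmorphamine. *Esrra*, the estrogen-related receptor that works with PGC-1α in mitochondrial gene expression, had -0.37 with DMSO (adjusted p = 0.119) and -0.37 with purmorphamine (adjusted p = 0.121). The mitochondrial transcription factor *Tfam* had -0.15 and -0.28 (adjusted p = 0.715 and 0.377). For purmorphamine over DMSO, the factors lay between -0.10 and 1.14 in control and between -0.10 and 0.20 in Pparg-cKO ureters. Their interaction values lay between -1.02 and 0.12.

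PPAR target genes were mostly lower in value, while few passed the test. Of 33 listed targets 31 were tested, and with DMSO 4 were lower and 1 was higher at the adjusted threshold, with a median log2 fold change of -0.56 beside 0.00 for all genes tested. With purmorphamine 5 were lower and 1 higher, with a median of -0.71. Among all genes tested, 359 were called lower and 387 higher with DMSO, and 348 lower and 233 higher with purmorphamine. With DMSO 14 targets were below control and 2 above it at an unadjusted p under 0.05, and with purmorphamine 20 were below and 1 above. Of all 20229 genes tested, 1572 were below and 1619 above with DMSO, and 1803 below and 1354 above with purmorphamine. Of the 33 genes 5, *Adipoq*, *Plin1*, *Cidec*, *Cidea* and *Ucp1*, are also among the fat cell or brown fat markers used here, and none of these was among the calls. The list holds other genes of fat cells, such as *Aqp7*, which was called. Another is *Fabp4*, which the study detected in adipose tissue around the ureter and not in the urothelium. The part that fat cells have in the values of this list was not tested.

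Several of the called targets act in fatty acid oxidation. *Ehhadh*, an enzyme of peroxisomal β-oxidation, had 11.17 and 11.36 in control against 9.44 and 9.47 in Pparg-cKO pools with DMSO. Its log2 fold change was -1.81 ± 0.23 (adjusted p = 0.0115), and -1.94 ± 0.23 (adjusted p = 0.0148) with purmorphamine. *Pdk4*, the kinase that shuts off pyruvate dehydrogenase, had 11.22 and 11.32 against 9.66 and 9.72 with DMSO, with log2 fold changes of -1.58 ± 0.16 (adjusted p = 0.00574) and -1.43 ± 0.16 (adjusted p = 0.0119). *Ehhadh* and *Pdk4* were lower in every Pparg-cKO pool than in every control pool. The mitochondrial carnitine palmitoyltransferase *Cpt1b* was called with purmorphamine only, at -0.89 ± 0.14 (adjusted p = 0.0276), and had -0.58 with DMSO (adjusted p = 0.0834). Without control replicate 2 the *Pdk4* call with DMSO ended (adjusted p = 0.0612), and so did that of *Ehhadh* without control replicate 1 or control replicate 2 (adjusted p = 0.100 and 0.137). With purmorphamine both were kept only without Pparg-cKO replicate 2, with adjusted p otherwise from 0.0689 to 0.173, and *Cpt1b* was lost without any array, with adjusted p of 0.0772 to 0.176.

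Lipid handling genes gave smaller groups of calls. *Aqp7*, the glycerol channel of fat cells, was lower with either treatment, with log2 fold changes of -1.60 ± 0.27 (adjusted p = 0.0294) and -1.71 ± 0.27 (adjusted p = 0.0299). *Slc27a1*, a fatty acid transporter, was lower with DMSO at -0.56 ± 0.11 (adjusted p = 0.0426), and the lipid droplet protein *Plin2* with purmorphamine at -0.75 ± 0.14 (adjusted p = 0.0433). The calls of *Slc27a1* and *Plin2* ended without any array, with adjusted p of 0.158 to 0.301 and 0.106 to 0.370. Those of *Aqp7* ended without control replicate 1 or 2, with adjusted p of 0.148 to 0.200, and with purmorphamine also without Pparg-cKO replicate 1 (adjusted p = 0.114). The largest fold changes of the list belonged to *Pck1*, with -3.17 and -3.62, and *Cidec*, with -2.21 and -3.12, which did not pass the test (adjusted p = 0.283 and 0.209, and 0.415 and 0.216). For the *Cidec* probe the male Pparg-cKO pool with purmorphamine had 9.67 and the female 13.54. Pools of the other groups lay closer, with 14.63 and 14.98 in control and 12.66 and 12.53 in Pparg-cKO ureters with DMSO. *Adipoq*, with 11.42 and 14.51, and *Plin1*, with 8.82 and 11.30, had such a gap in Pparg-cKO ureters with purmorphamine too. The fit uses a common estimate of the spread for all groups, so this group also widens the test with DMSO.

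*Vnn1*, which encodes the pantetheinase vanin 1 and is a known PPARA target in liver, went the other way. Pparg-cKO pools had 11.66 and 11.34 and control pools 9.40 and 9.71 with DMSO, with a log2 fold change of 1.94 ± 0.15 (adjusted p = 0.00263). With purmorphamine the value was 0.92 ± 0.15 (adjusted p = 0.0332), a call that ended without any array, with adjusted p of 0.0943 to 0.217, while the DMSO call ended only without control replicate 2 (adjusted p = 0.0564). For purmorphamine over DMSO in Pparg-cKO ureters, the log2 fold change was -0.87 ± 0.12 for *Vnn1* (adjusted p = 0.0322), 0.82 ± 0.13 for *Pdk4* (adjusted p = 0.0415) and 0.64 ± 0.11 for the thiolase gene *Acaa2* (adjusted p = 0.0485). These calls ended without Pparg-cKO replicate 1 (adjusted p = 0.131, 0.0933 and 0.172) and without Pparg-cKO replicate 2 (adjusted p = 0.163, 0.334 and 0.471). In control ureters no listed target was called for purmorphamine. The interaction called no gene of the list. It was -1.02 ± 0.16 for *Vnn1* (adjusted p = 0.983), and a difference between the genotypes in these responses was not shown.

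**Figure D5:**
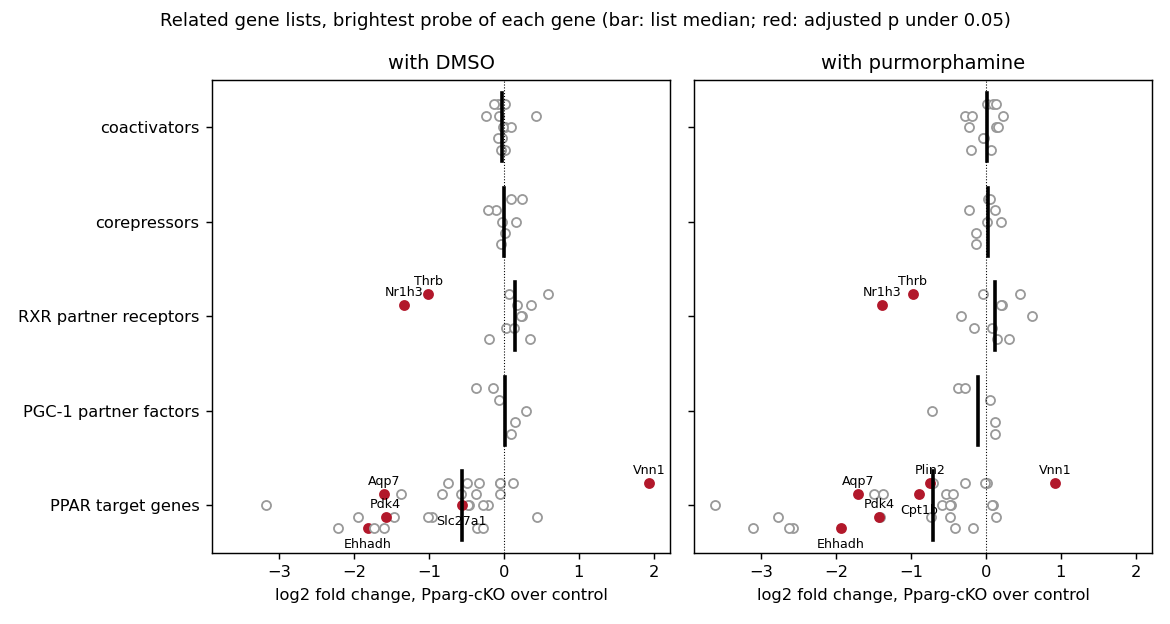
Log2 fold change of Pparg-cKO over control (x axis) for the brightest probe of each gene in 5 lists of related genes, with DMSO (left) and purmorphamine (right). Red points have an adjusted p under 0.05 and are named, and black bars are list medians, -0.56 and -0.71 for the PPAR target genes. *Vnn1* is the only named gene to the right of 0.

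The pattern of *Pparg* over the pools was shared most closely by genes that are not known members of the PPAR pathway. Over the 8 pools, the highest Pearson's r with the *Pparg* probe among the 20228 other genes tested was 0.979 for *9130019O22Rik*, followed by 0.979 for *Rab3b*, 0.977 for *St7* and 0.976 for *Ikbip*. *Rab3b*, a small GTPase of secretory vesicles, went from 8.91 and 9.59 in the control pools with DMSO to 11.09 and 11.62 in the Pparg-cKO pools with purmorphamine. An r above 0.9 was reached by 148 genes. The 8 points share 4 arrays and the differences of genotype, treatment and sex, and r is given as a description.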

How the data were processed

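RNA of male or female ureter pools was hybridised to 4 two-color Agilent arrays, each with the DMSO and the purmorphamine pool of a genotype and sex. The dyes were exchanged between replicates 1 and 2. Per the file headers, Feature Extraction gave mean and background intensity for every spot in each dye (12.2.0.7, while the labels name 10.7.3.1). As deposited, the processed intensity is background-subtracted and dye-normalized, the log10 ratio is red over green, and the series table holds a score, a signed fold of purmorphamine over DMSO, whose log2 had an r of at least 0.995 with the scaled ratio.

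Mean intensities were corrected with normexp (offset 50) and loess, the 4 spots of a probe were averaged, and limma (3.58.1, in R 4.3.3) was applied. After Aquantile normalization, the separate-channel fit was used for genotype (intraspot correlation 0.0632) and the log ratio within arrays for purmorphamine. A probe was tested where some group had at least 3 of its spots well above background in both pools, which held for 27064 probes, and p-values were adjusted after Benjamini-Hochberg, with a threshold of 0.05. For the rule of the methods, processed intensities were scaled to a 75th percentile of 1500 with a floor of 15. The fits were tested on simulated data. Positions are those of the deposited files. Symbols are the file's, and 16 of 17 member probes had a RefSeq accession found in the table for GRCm38.p6 under the same symbol. Members and lists were chosen with earlier results of these data known. All probes of the members and, of the lists, genes past the threshold were to be named, at most 4 per list and comparison by fold change, and the 5 genes nearest to *Pparg*, of which 1 is not reported here. Others were named after their values were seen. The alternatives were the processed signals, no filter on dim probes, an offset of 16, the brightest probe per gene, other normalization between arrays, a replicate block, the table of the series, and each array left out.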

Additional observations from a re-analysis of the deposited data

How the results depend on the processing

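Among the members and listed genes, every log2 fold change past the threshold kept its sign under all alternatives run for it (300 in number). The call was kept in 151 of these. With the processed signals, 529 probes were called between the genotypes with DMSO and 254 with purmorphamine, and for purmorphamine 0 in control and 0 in Pparg-cKO ureters; the members called with purmorphamine were 1, the RXR partners 1 and 1, and the PPAR targets 3 with DMSO, 1 with purmorphamine and 0 for purmorphamine. Without the filter on dim probes, purmorphamine called 0 probes in control and 358 in Pparg-cKO ureters, the RXR partners 1, 1 and 0, and the PPAR targets 3 with purmorphamine and 0 for it. With a single probe per gene, 2 members were called with DMSO. Without normalization between arrays, 1093 probes were called with purmorphamine, and 5 of these were member probes, of *Ppara*, *Ppard* and *Rxra*. The PPAR targets were 9 and 11, and the PGC-1 partners 1 and 1. The table of the series gave 0 calls for purmorphamine in control and 0 in Pparg-cKO ureters, lists included.

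With the replicate block, 573 probes were called with DMSO, and 2 of these were member probes, both of *Ppara*. With purmorphamine 270 probes were called, among them 1 member probe, also of *Ppara*. The RXR partners were 1 and 0, and the PPAR targets 3 and 2. For purmorphamine over DMSO, 0 RXR partners in Pparg-cKO and 1 PGC-1 partner in control ureters were called. Deviations of same-numbered pools correlated at -0.171 with DMSO and 0.482 with purmorphamine, and the numbers mark sex and dye, while the labels do not say whether they share litters. The crossed pairing, chosen after seeing the data, called 364 probes and 1 member with DMSO and 141 and 0 with purmorphamine, 0 and 0 RXR partners and 2 and 0 PPAR targets.

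Leaving out each array in turn gave 47 to 497 probes and 0 to 1 members with DMSO, 21 to 382 probes and 0 members with purmorphamine, 0 to 716 probes for purmorphamine in control, 196 to 1349 in Pparg-cKO ureters and 0 to 43 for the interaction. The RXR partners were 0 to 1, 0 to 1 and, for purmorphamine in Pparg-cKO ureters, 0 to 2, and the PPAR targets 1 to 9, 0 to 10, 0 to 2 in control and 3 to 6 in Pparg-cKO ureters. Under the rule of the methods, 3 member probes passed with DMSO, all of *Ppara*. With purmorphamine 4 member probes passed, of *Pparg*, *Ppara* and *Ncor1*. In each case 14 member probes were bright enough, and 4.88% and 5.53% of all such probes passed. At a 2-fold threshold 1 and 2 member probes passed, against 2.36% and 2.03%. With 1 pair alone, 4 to 6 passed between the genotypes with either treatment. For purmorphamine over DMSO, 1 to 2 passed in control and 1 in Pparg-cKO ureters. The 2 pools per group limit all values.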
